A study of Homo sapiens with 6 samples.

Results

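PRSS35, SAMD11, NPY1R and KRT13 are 4 genes that were lower in U251 glioblastoma cells given tumor necrosis factor-α (TNF-α) than in untreated cells. They were picked by name from a gene expression table of 58735 genes as large falls between these same groups that share no pathway, and all 4 were among the 12136 genes with enough signal to be analysed. Since the fall itself chose them, it is given here as a description, without a test. Their relatives, their neighbours on the chromosome and their sequence were not part of that choice. Their levels in the untreated cells were, since only a gene expressed there can fall far. KRT13 had enough signal only in the untreated cells.

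The study asked how a low dose of TNF-α changes the transcriptome of U251, an established human glioblastoma cell line. The NC group received sterile deionized water, and the TNF-α group received recombinant human TNF-α at 10 ng/mL. Both groups were kept for 24 h, and RNA was sequenced after poly(A) selection from 3 biological replicates per group. All values come from 1 cell line at 1 dose and 1 time, so nothing here covers other glioblastoma cells.

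TNF-α is an inflammatory cytokine that binds TNF receptors on the cell surface and switches on NF-kB and stress kinase pathways. Its best-known target genes rise. The 4 genes here were lower, and their proteins do unlike things. PRSS35 encodes a secreted protein of the serine protease family that is thought to lack protease activity, because its catalytic serine is replaced. SAMD11 encodes a nuclear protein with a sterile alpha motif (SAM) domain that is linked to Polycomb repression in photoreceptors. NPY1R encodes a receptor for neuropeptide Y and peptide YY that signals through inhibitory G proteins. KRT13 encodes a type I keratin of the upper layers of non-cornified stratified epithelia such as the oral mucosa, where it pairs with the type II keratin KRT4.

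The libraries held between 31992167 and 37897044 reads in genes. TNF-α replicates 2 and 3 stood apart from the other 4 libraries. In these 2 libraries, 16.6% and 17.9% of all reads came from genes over 8 kb long, whereas the share was 28.8% to 29.1% elsewhere. The labels name no batch for this. TNF-α replicate 1 is therefore given separately for the 4 genes and for each named relative or neighbour whose sign differs there. Other analysed relatives and neighbours, which are not named, also differ in sign there. The 4 NF-kB target genes used as a check of the treatment were above every NC library in each of the 3 TNF-α libraries. All 4 passed the test, which was limma with an adjusted p under 0.05. Of all genes analysed 14.8% were above in this way and 0.717% were called higher. ICAM1, an adhesion molecule, had a log2 difference of 3.76 ± 0.18 (SE, adjusted p = 0.000833) and kept its call under all 19 alternatives run. The NF-kB inhibitor genes NFKBIA and TNFAIP3 and the survival gene BIRC3 lost theirs under 3, 11 and 6 of them. Of 8 glioma and astrocyte markers 7 were expressed, while S100B had at most 8 reads in any library. Of 10 markers of leukocytes, endothelium, neurons, oligodendrocytes and stroma none reached the level needed for analysis. Bulk RNA cannot tell fewer cells of a kind from less RNA per cell.

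Expression is given as FPKM, read fragments scaled by gene length and library size, which allows levels of different genes to be compared. The library size that the values imply is a scaled total. It was 0.693 and 0.759 of the reads in genes in TNF-α replicates 2 and 3, against 0.925 to 0.959 elsewhere. A given share of reads therefore counts for more FPKM in those replicates, while ratios between genes within a library are unaffected. For each of the 4 genes, the 3 NC libraries lay close together. SAMD11 was the highest at 12.3 ± 0.249 FPKM (SD, n = 3), and PRSS35 followed at 9.80 ± 0.386. NPY1R stood at 7.37 ± 0.201 and KRT13 at 3.38 ± 0.374. The ranges of the 3 libraries did not overlap between any neighbours in this order. All 4 were thus well measured before treatment, with between 288 and 1893 reads per library. Among the protein-coding genes analysed, SAMD11 lay at the 62.7 to 64.1 percentile, PRSS35 at 54.7 to 57.3, NPY1R at 45.2 to 46.9 and KRT13 at 20.4 to 26.1.

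Every TNF-α library was below every NC library for all 4 genes. This held for 15.3% of all genes analysed, while the reverse held for 14.8%. The test called 0.297% of genes lower, a set to which the 4 genes belong by choice, 0.717% higher and 1.01% in either direction. These shares depend on the libraries used. Without TNF-α replicate 1 they were 36.8% lower and 42.6% higher, and with that replicate alone against the NC group 2.33% and 3.70%. After treatment the order of the levels was no longer clear. SAMD11 had the highest mean at 3.26 ± 0.931 FPKM (SD, n = 3), and the means of NPY1R, 1.89 ± 0.971, and PRSS35, 1.87 ± 0.323, were closer together than their spread. The range of NPY1R overlapped those of both PRSS35 and SAMD11. KRT13, at 0.494 ± 0.187, was the lowest of the 4 in each treated library.

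**Figure D1:**
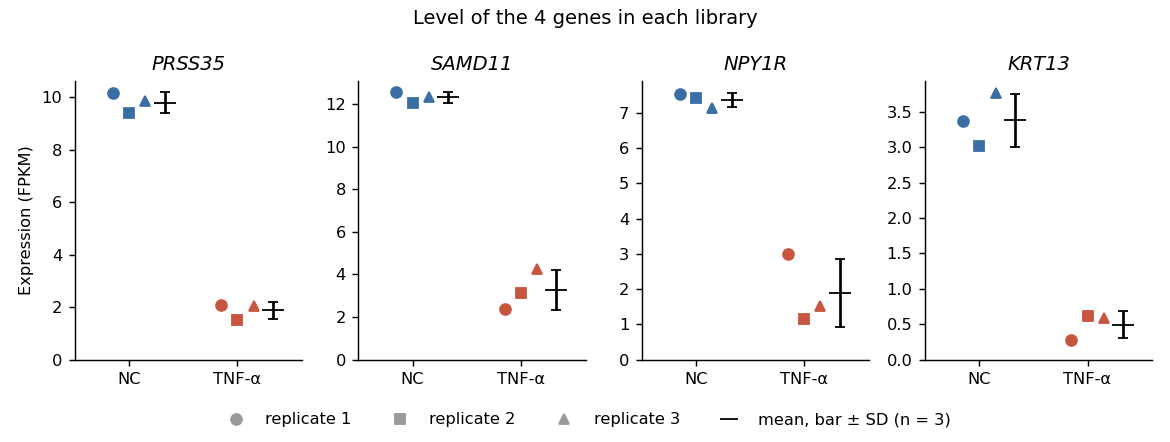
Expression of the 4 genes in FPKM (vertical axes start at 0 and differ between panels) in the 3 NC and 3 TNF-α libraries, with 1 point per library, its shape giving the replicate number, and the mean with its SD beside the points. In each panel all TNF-α points lie below all NC points, and the NPY1R point of TNF-α replicate 1, at 2.99 FPKM, sits above the other 2.

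PRSS35 (ENSG00000146250) lies on chromosome 6 from 83512538 to 83525704 on the plus strand (GRCh38). It has 1 annotated transcript of 2440 bases in 2 exon blocks. The NC replicates 1 to 3 gave 10.2, 9.39 and 9.85 FPKM, and the TNF-α replicates 1 to 3 gave 2.08, 1.50 and 2.04 FPKM. The treated libraries therefore kept 21.2%, 15.3% and 20.8% of the NC mean, in FPKM the tightest spread of the 4 genes after treatment. This did not hold on TPM, which scales each library to the same total of levels. There the log2 ratios of TNF-α replicates 1 to 3 were -2.13, -3.19 and -2.68 for PRSS35. For KRT13 they were -2.77, -2.59 and -2.51. The ratio of the means was 5.23-fold, and the log2 difference on the log2(FPKM + 1) scale was -1.91 ± 0.13 (SE). PRSS35 had the largest fall on this scale of the 36 genes that passed the test in the downward direction, and the 5th largest of all 12136 genes analysed. It went from near the middle of the expressed protein-coding genes to the 11.9 to 16.6 percentile.

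The 250 bases before the RefSeq start of PRSS35 are shown because they hold letters that match the consensus of NF-kB, the factor TNF-α activates. The window is chr6:83512284-83512533 on the plus strand (GRCh38.p14, RefSeq), and capitals mark motif matches.
PRSS35: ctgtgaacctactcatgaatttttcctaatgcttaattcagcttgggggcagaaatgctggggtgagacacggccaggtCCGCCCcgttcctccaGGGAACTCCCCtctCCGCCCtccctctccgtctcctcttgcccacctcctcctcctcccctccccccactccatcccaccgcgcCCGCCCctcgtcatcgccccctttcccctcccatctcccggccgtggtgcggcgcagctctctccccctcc
The NF-kB consensus matched at 2 overlapping places, from -155 to -146 (GGGAACTCCC) and from -154 to -145 (GGAACTCCCC) before the start. The GC box GGGCGG, a letter pattern of many promoters, matched on the reverse strand at 3 places that begin at -171, -141 and -71. The AP-1 pattern, searched as TGANTCA, was not found in this window. Neither was the TATA box, searched as TATAAA, nor the CCAAT box, searched by these letters. Both strands were searched in 35116 RefSeq windows of the same length. Of these 9.96% held the NF-kB consensus and 42.6% the GC box, so neither match is rare. A match is a description of the letters and says nothing of binding.

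SAMD11 (ENSG00000187634) lies on chromosome 1 from 923928 to 944581 on the plus strand. It has 17 annotated transcripts and a merged exon length of 4166 bases in 14 blocks. The NC replicates 1 to 3 gave 12.6, 12.1 and 12.3 FPKM, and the TNF-α replicates 1 to 3 gave 2.39, 3.14 and 4.24 FPKM. In FPKM, replicate 1 was the lowest of the treated libraries and replicate 3 the highest, at 19.4% and 34.4% of the NC mean. On TPM the log2 ratios were -2.28, -2.64 and -2.09. Replicate 2 was then the lowest. The ratio of the means was 3.79-fold and the log2 difference -1.67 ± 0.18 (SE). In TNF-α replicate 1 taken alone, its log2 ratio of -1.97 was the lowest of all 12136 genes analysed.

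The window before the RefSeq start of SAMD11 is shown as a contrast to that of PRSS35, being dense in CG and free of all 5 motifs searched. It is chr1:925481-925730 on the plus strand (GRCh38.p14, RefSeq), where the GENCODE annotation places it inside the gene but in no exon. Capitals mark each CG.
SAMD11: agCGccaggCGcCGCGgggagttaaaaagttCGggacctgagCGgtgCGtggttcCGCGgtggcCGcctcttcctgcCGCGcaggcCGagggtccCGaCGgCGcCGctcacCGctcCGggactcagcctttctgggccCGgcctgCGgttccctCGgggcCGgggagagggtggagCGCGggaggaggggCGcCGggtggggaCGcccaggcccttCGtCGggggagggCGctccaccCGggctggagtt
This window held 32 CG dinucleotides and 75.6% G and C. The PRSS35 window held 14 and 65.2%, and the medians of all windows were 11 and 58.0%. The NPY1R window, chr4:163332597-163332846 on the minus strand, matched none of the 5 motifs and had 56.4% G and C. It is not printed, since all 250 bases are exonic in the annotation of the files. The upstream windows of 3 of the 4 genes were found, and KRT13 was the one without an entry.

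NPY1R (ENSG00000164128) lies on chromosome 4 from 163323961 to 163344832 on the minus strand, with 7 annotated transcripts and 4180 merged exon bases in 5 blocks. The NC replicates 1 to 3 gave 7.53, 7.43 and 7.14 FPKM, and the TNF-α replicates 1 to 3 gave 2.99, 1.14 and 1.53 FPKM. It varied most among the treated libraries, with a coefficient of variation of 51.5% against 2.73% in the NC group. Replicate 1 kept 40.5% of the NC mean, and replicates 2 and 3 kept 15.5% and 20.7%. The ratio of the means was 3.91-fold and the log2 difference -1.59 ± 0.24 (SE). In TNF-α replicate 1 alone the log2 ratio was -1.07, the 29th lowest of all genes analysed, so its fall rests more than that of the other 3 genes on the libraries that stood apart.

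KRT13 (ENSG00000171401) lies on chromosome 17 from 41500981 to 41505705 on the minus strand, in a cluster of type I keratin genes. It has 9 annotated transcripts and 2913 merged exon bases in 10 blocks. The NC replicates 1 to 3 gave 3.37, 3.01 and 3.76 FPKM, and the TNF-α replicates 1 to 3 gave 0.278, 0.609 and 0.594 FPKM. The treated libraries kept 8.21%, 18.0% and 17.6% of the NC mean, and replicate 1 was the lowest. These values rest on 26, 46 and 42 reads. The exact 95% Poisson interval of the lowest library, 0.181 to 0.407 FPKM, covers counting error only and does not reach the other treated values. The ratio of the means was 6.85-fold, the largest of the 4 genes. The log2 difference was -1.56 ± 0.15 (SE), the smallest of the 4, because the added 1 weighs most on low levels. With 0.1 added instead, KRT13 had the lowest log2 difference of the 4, -2.60, below PRSS35 at -2.34.

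Among the 36 genes called lower, the 4 genes took places 1, 3, 5 and 6 by log2 difference. Among all 12136 genes analysed, whether called or not, their places were 5, 22, 32 and 37. CNR1, the cannabinoid receptor of the brain, at -1.81 ± 0.18 (SE) and SOX21, a neural transcription factor, at -1.61 ± 0.18 lay between them. GFAP, the intermediate filament of astrocytes, came just below KRT13 at -1.54 ± 0.18. No gap in size therefore set the 4 genes apart from others that fell.

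The treated libraries did not rank alike for the 4 genes. In FPKM, SAMD11 and KRT13 were lowest in TNF-α replicate 1, while PRSS35 and NPY1R were lowest in replicate 2. The ratio of SAMD11 to NPY1R was 1.62 to 1.73 in the NC libraries, 0.801 in the first treated library and 2.74 and 2.78 in the others. PRSS35 stood at 0.777 to 0.807 of SAMD11 in the NC libraries and at 0.870 in TNF-α replicate 1, but only at 0.479 and 0.482 in the remaining libraries. NPY1R exceeded KRT13 by 10.7-fold in TNF-α replicate 1, against 1.90- to 2.47-fold in the NC libraries and 1.88- and 2.57-fold in the other 2 treated libraries. Replicates 2 and 3 thus resembled each other and differed from replicate 1 in these ratios.

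The 4 genes also differ in base composition. The SAMD11 transcript has 66.8% G and C, above 98.6% of the genes analysed, and that of KRT13 has 58.1%, above 81.7%. PRSS35 has 42.8% and NPY1R 38.1%, above 29.3% and 8.89% of genes. After a correction of each library for GC content and gene length, the log2 ratios of SAMD11 in TNF-α replicates 1 to 3 were -1.96, -2.56 and -2.08 in place of -1.97, -1.69 and -1.35. Those of KRT13 became -1.77, -2.34 and -2.21 in place of -1.77, -1.44 and -1.46. Replicate 1 was then no longer the lowest for either gene. The correction changed GC content and length together, and the part of either in the differences between treated libraries was not tested. The corrected ratios of PRSS35 were -1.81, -2.37 and -2.04, and those of NPY1R were -1.10, -1.74 and -1.56. All 4 genes stayed below the NC libraries in each treated library on both scales.

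**Figure D2:**
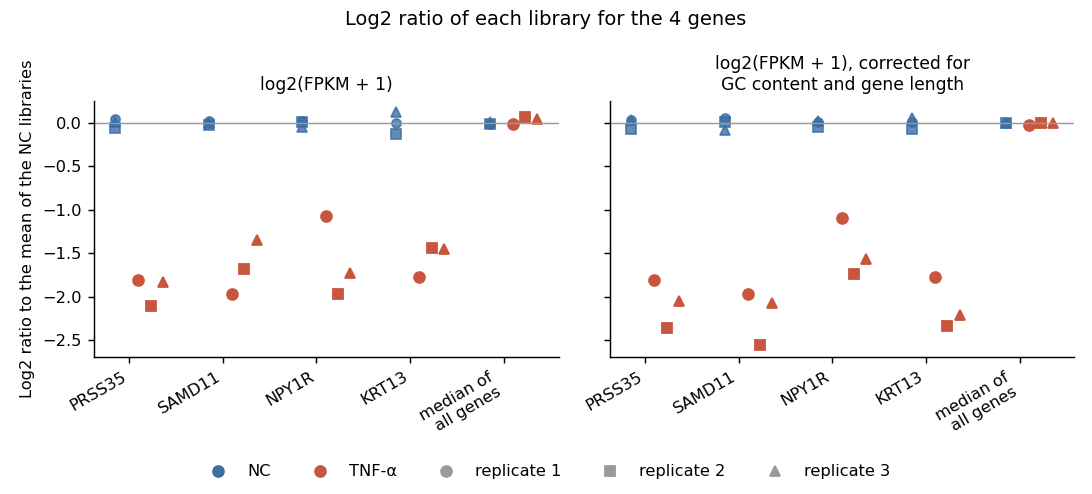
Log2 ratio of every library against the NC mean for the 4 genes and for the median of all genes analysed, before (left) and after (right) correction for GC content and gene length; color gives the group and shape the replicate. The treated points lie between -2.11 and -1.07 on the left and between -2.56 and -1.10 on the right, and the median of all genes stays near 0.

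Genes with the most similar pattern were found from the root mean square difference of the log2 ratios over the 6 libraries. It is a distance, with 0 for an identical pattern, and it has no test. KRT13 lay nearest to GFAP at 0.0568, then to ITGB4, the integrin of hemidesmosomes, at 0.126 and to SAMD11 at 0.151. The match of KRT13 and GFAP belongs to the log2(FPKM + 1) scale. With 0.1 added instead of 1, their log2 differences were -2.60 and -1.88. SAMD11 in turn lay nearest to KRT13, followed by GFAP at 0.183 and ITGB4 at 0.239. On this uncorrected scale these genes shared the pattern in which TNF-α replicate 1 was the lowest, though ITGB4 was nearly level at -1.48, -1.41 and -1.45. After the GC and length correction, replicate 1 was instead the highest treated library for SAMD11 and KRT13. NPY1R lay nearest to MYO18A, an unconventional myosin, at 0.0916, to SOX21 at 0.108 and to NTN4, a secreted netrin, at 0.121, and in all of these replicate 1 was the highest treated library. The other 3 genes were only the 47th (PRSS35), 112th (KRT13) and 158th (SAMD11) nearest to NPY1R. PRSS35 lay between, with CNR1 at 0.139, SOX21 at 0.244 and SAMD11 at 0.270 nearest. All genes share the same 6 libraries, including those that stood apart.

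**Figure D3:**
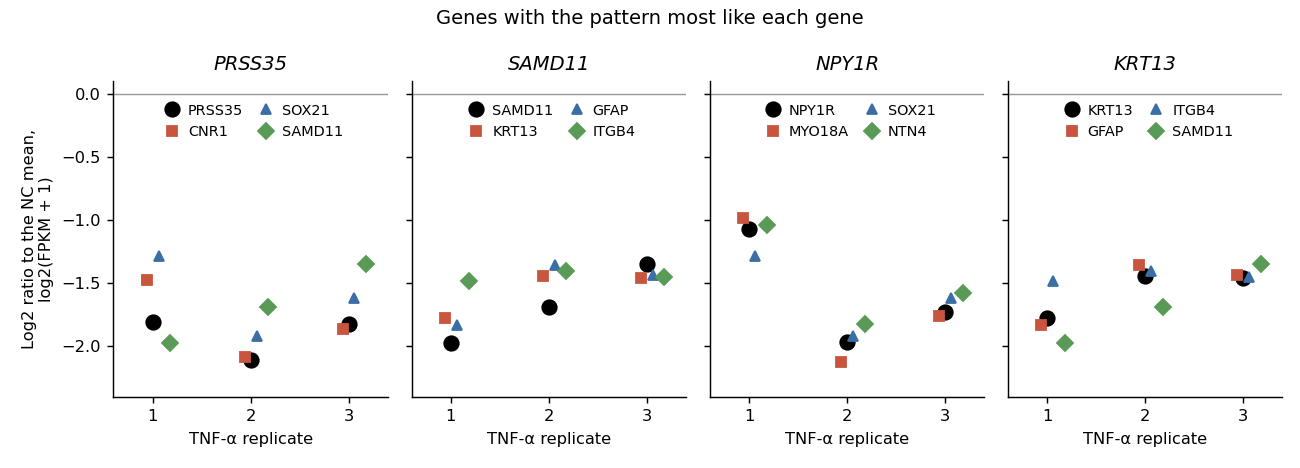
Log2 ratio to the NC mean, on the log2(FPKM + 1) scale, in TNF-α replicates 1 to 3 for each of the 4 genes (black circles) and the 3 genes nearest to it (colored symbols). KRT13 and GFAP nearly coincide on this scale, at a distance of 0.0568 over the 6 libraries, and the genes near NPY1R share its weaker fall in replicate 1.

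The relatives of the 4 genes were next examined by family, leaving out the 4 genes themselves. Across all genes analysed the median log2 difference was 0.04. Among the serine proteases of the PRSS and HTRA groups, the 34 names listed cover 31 genes, all in the table, and 4 were expressed enough to be analysed. None passed the limma test in either direction, none had an unadjusted p under 0.05, and limma-voom on the recovered reads also called none. PRSS23, the closest relative of PRSS35, had 16.0 FPKM in the NC group and a log2 difference of -0.13 ± 0.14 (SE, limma adjusted p = 0.464). HTRA1, a secreted protease with the highest level in this family, had 0.33 ± 0.24, and its mitochondrial relative HTRA2 had 0.47 ± 0.30. PRSS12, the neuronal protease neurotrypsin, had -0.25 ± 0.16. PRSS23 was lowest in TNF-α replicate 1, at 12.5 FPKM and a log2 ratio of -0.33. Its replicates 2 and 3 gave 15.7 and 15.5 FPKM, against 15.6 to 16.4 in the NC libraries. For HTRA1, HTRA2 and PRSS12 the signs were those of TNF-α replicates 2 and 3. In replicate 1 the log2 ratio was -0.17 for HTRA1, -0.23 for HTRA2 and 0.05 for PRSS12. The median of these proteases was 0.10 over all treated libraries and -0.20 in replicate 1.

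Of 27 genes with a SAM domain, 18 were analysed and none passed the limma test in either direction, although 3 had an unadjusted p under 0.05. Limma-voom called none as well. The median log2 difference was -0.30, with 13 values below 0 and 5 above. PHC2, a Polycomb protein, had 38.4 FPKM in the NC group and a log2 difference of 0.88 ± 0.26 (SE, limma adjusted p = 0.195), opposite in sign to SAMD11. SAMD9, an antiviral factor with the highest NC level of the list, had -1.26 ± 0.59 (limma adjusted p = 0.196), and its paralog SAMD9L had -0.54 ± 0.47. Both were higher than in every NC library in TNF-α replicate 1, with log2 ratios of 0.17 and 0.59, and lower only in replicates 2 and 3. SAMD9 gave 109 FPKM in replicate 1 but 22.1 and 25.6 in the others. SAMHD1, a nucleotide hydrolase, had -0.04 ± 0.19, and 0.29 in replicate 1. In that replicate 7 of the 18 genes were below the NC mean, with a median of 0.06. SAMD7, the photoreceptor partner of SAMD11, had 4 reads in NC replicate 1 and none elsewhere. Without TNF-α replicate 1, 12 of these genes were called lower and 3 higher, in a fit that called 36.8% and 42.6% of all genes. With replicate 1 alone 2 were called higher, where 3.70% of all genes were.

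The NPY system was nearly silent apart from NPY1R. Of 53 genes for neuropeptide Y, its relatives and other peptide receptors, only OXTR, the oxytocin receptor, was analysed, and it had a log2 difference of -0.23 ± 0.15 (SE, limma adjusted p = 0.276). Limma gave it no unadjusted p under 0.05, and limma-voom called it in neither direction. The ligand gene NPY had a single read, in NC replicate 1 (1 read over all 6 libraries). NPY5R, a second receptor for the same peptides beside NPY1R on chromosome 4, had 0 reads in all 6 libraries. That count allows a level of up to 0.0252 to 0.0375 FPKM, the worth of 3 reads per library. NPY1R, in contrast, had 959 to 1137 reads in each NC library.

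The other keratins did not move in 1 direction. All 54 keratin genes other than KRT13 were in the table, 25 of them had no read in any library, and 7 were analysed. By limma 1 passed the test in the downward direction and none in the upward direction, with 3 at an unadjusted p under 0.05, and limma-voom gave the same counts. Of all genes analysed limma called 0.297% lower and 0.717% higher. The median log2 difference was 0.80, with 2 values below 0 and 5 above. In TNF-α replicate 1, however, 6 of the 7 were below the NC mean and the median log2 ratio was -0.28. The summed level of the family there was 566 FPKM, against 665 to 730 in the NC libraries and 2226 and 1787 in replicates 2 and 3. The one that fell was KRT15, a type I keratin of basal epithelial cells. Its NC replicates 1 to 3 gave 2.48, 2.40 and 2.81 FPKM, and its TNF-α replicates 1 to 3 gave 0.449, 0.726 and 0.757 FPKM. The groups did not overlap, and replicate 1 was the lowest, as it was for KRT13. KRT15 reached the level needed for analysis in the NC libraries alone. Its place in the test therefore depended on the group where it was high. The log2 difference of KRT15 was -1.12 ± 0.13 (SE, limma adjusted p = 0.0223), and in TNF-α replicate 1 alone the log2 ratio was -1.30. The call was lost under 8 of 18 alternatives, among them leaving out any library but TNF-α replicate 1 (limma adjusted p = 0.0745 to 0.205), while the log2 difference stayed between -2.29 and -0.98.

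The other keratins gave a different picture. KRT81, a hair keratin and by far the highest, gave 560, 576 and 616 FPKM without treatment and 481, 2041 and 1623 FPKM in TNF-α replicates 1 to 3. It was therefore high only in the 2 libraries that stood apart, and its log2 difference of 1.00 ± 0.55 did not pass the test (SE, limma adjusted p = 0.217). KRT80 had 56.2 FPKM in the NC group and a log2 difference of -0.41 ± 0.13, and KRT10 had 22.6 FPKM and 0.97 ± 0.44, both with a limma adjusted p of 0.195. KRT86, another hair keratin, had 0.80 ± 0.43 (limma adjusted p = 0.213). None of these keratins passed the test. In TNF-α replicate 1 KRT10 had -0.06 and KRT86 -0.24, so that their positive values rest on replicates 2 and 3. KRT80 had -0.41 there too and was below every NC library in each treated library. KRT7, named here after its values were seen, had 0.509 FPKM in the NC group and 1.08 ± 0.26 (SE, limma adjusted p = 0.161). It was above every NC library in each treated library, with 0.49 in replicate 1. KRT7 reached the level needed for analysis in the TNF-α libraries alone. KRT4, the partner of KRT13 in epithelia, had 0 reads in all 6 libraries, which allows up to 0.0251 to 0.0373 FPKM. KRT19, a keratin of simple epithelia next to KRT15, had at most 10 reads. KRT13 thus was transcribed here without a measurable level of its usual partner. Without TNF-α replicate 1, limma called 2 of the 7 keratins lower and 5 higher, in a fit that called 36.8% and 42.6% of all genes.

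**Figure D4:**
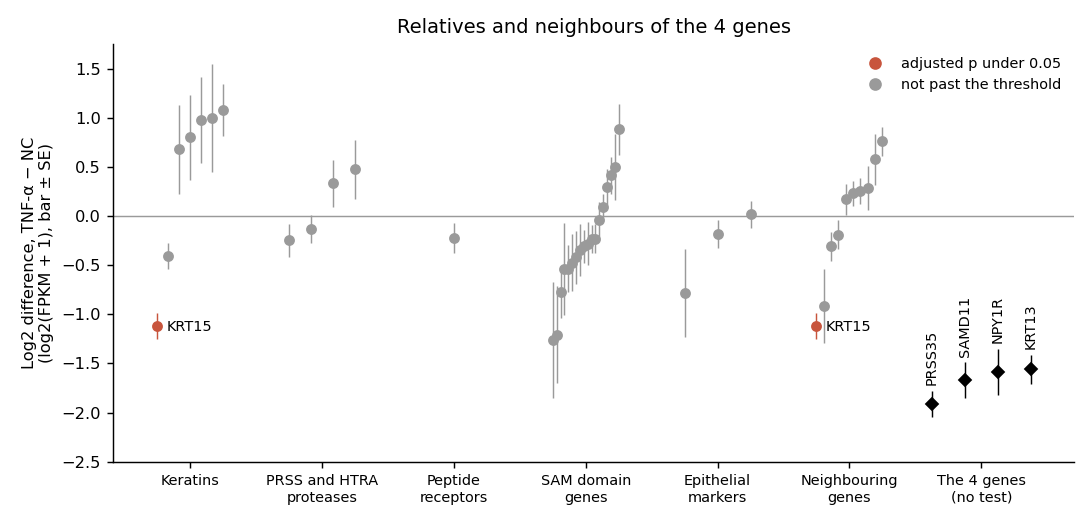
Log2 difference, TNF-α minus NC, with SE on the log2(FPKM + 1) scale for the analysed genes of each family, the epithelial markers and the neighbouring genes, sorted by value within each group, with the 4 genes at the right as black diamonds without a test. Only KRT15, at -1.12, is past the adjusted p of 0.05, and it appears both among the keratins and among the neighbours.

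Epithelial genes were checked because of KRT13. Of 22 markers 3 were analysed, namely DSP and JUP, which encode desmosome proteins, and the claudin gene CLDN4. None passed the limma test in either direction, none had an unadjusted p under 0.05, and limma-voom called none. DSP had a log2 difference of -0.78 ± 0.45 (SE, limma adjusted p = 0.227), JUP of -0.18 ± 0.15 and CLDN4 of 0.02 ± 0.14. In TNF-α replicate 1 the log2 ratios were 0.31, -0.39 and -0.14, so that DSP and CLDN4 had the opposite sign there. The defining markers EPCAM and CDH1 had 6 and 4 reads over all 6 libraries together, and KRT5 had 0. The summed level of the list was 16.2 to 18.0 FPKM in the NC libraries, 17.9 in TNF-α replicate 1 and 11.4 and 11.6 in the other treated libraries. KRT13, by contrast, was lowest in uncorrected FPKM in replicate 1, where the list was within its NC range.

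Among the chromosomal neighbours, KRT15 was the one that passed the test. As stated above, it reached the level needed for analysis in the NC libraries alone. Of the 24 nearest protein-coding genes, 3 on each side of each gene, 10 were analysed. Limma called 1 lower and none higher, with 3 at an unadjusted p under 0.05 and the same counts from limma-voom, and the median log2 difference was 0.20. Its shares over all genes were 0.297% lower and 0.717% higher. The values were below 0 for 4 of the 10, and 2 of them, KRT15 and CYB5R4, were below every NC library in each TNF-α library. Another 3, PGM3, RWDD2A and TMA16, were above every NC library in each. Of all genes analysed 15.3% were below and 14.8% above in this way. RWDD2A, named after its values were seen, has its midpoint at -323 kb from that of PRSS35, the minus sign meaning lower coordinates. It had 0.76 ± 0.15 (SE, limma adjusted p = 0.102), and 0.50 in TNF-α replicate 1. CYB5R4, a reductase gene at 394 kb from PRSS35 named here after its values were seen, had -0.31 ± 0.15 (SE, limma adjusted p = 0.197). RAPGEF2, chosen likewise, lies far from NPY1R, with its midpoint at -4103 kb. It had -0.92 ± 0.37 (limma adjusted p = 0.195), but -0.02 in TNF-α replicate 1. PRSS35 stood between genes without expression, as ME1, which encodes malic enzyme, had at most 4 reads and SNAP91, a synaptic gene, had none. SAMD11 stands beside NOC2L, which encodes a histone acetylation inhibitor and had a log2 difference of 0.58 ± 0.26 (SE, limma adjusted p = 0.195). The nearest olfactory receptor gene on its other side, OR4F16, had 0 reads. NPY1R lies between NAF1, a ribonucleoprotein assembly factor with -0.19 ± 0.15 (limma adjusted p = 0.336; 0.04 in TNF-α replicate 1), and NPY5R, without a read. KRT13 lies between KRT36, with 1 read in all, and KRT15, whose midpoint is 14.8 kb away. KRT13 and KRT15 were the one adjacent pair in which the neighbour was also called lower. Without TNF-α replicate 1, limma called 4 neighbours lower and 5 higher, and with replicate 1 alone it called 1 higher, where the shares of all genes were 36.8%, 42.6% and 3.70%.

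**Figure D5:**
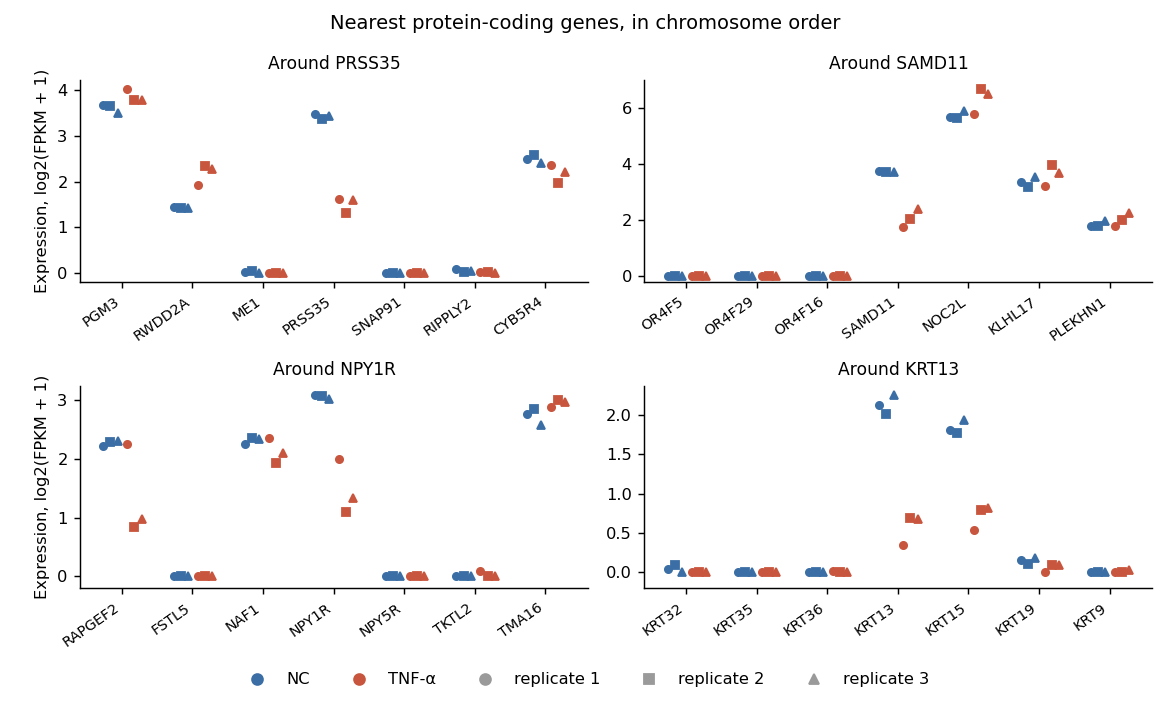
Expression as log2(FPKM + 1) of the 3 nearest protein-coding genes on each side of each of the 4 genes, in chromosome order, with 1 point per library, color for the group and shape for the replicate. In the KRT13 panel the adjacent KRT15, at 2.56 FPKM in the NC group and 0.644 in the TNF-α group, is also lower in all treated libraries.

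Reads shared with other genes could touch 3 of the 4 genes. PRSS35 overlaps no other exon, and none of its 2410 stretches of 31 bases occurs in another gene. SAMD11 shares 378 exonic bases, 9.07% of its length, with NOC2L on the opposite strand, and the use of strand in counting is not given in the sources used here. The NC values of NOC2L were 50.5, 49.1 and 58.3 FPKM, and its TNF-α replicates 1 to 3 gave 53.8, 101 and 89.6 FPKM. It was thus higher in the same replicates 2 and 3 in which SAMD11 was less reduced in FPKM. On TPM, SAMD11 was less reduced than in replicate 1 only in replicate 3. The part of these shared bases in the SAMD11 values was not tested. NPY1R shares 12.6% of its exonic bases with NPY5R and KRT13 16.3% with the antisense gene AC019349.1, and both partners were listed at 0 in all 6 libraries. KRT13 shared 45 of its 2970 stretches of 31 bases with KRT15, and how reads of these stretches were assigned was not tested.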

How the data were processed

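Poly(A)-selected RNA of 6 U251 libraries was sequenced, and groups and replicate numbers were taken from the sample titles. The authors deposited FPKM per gene and library. The submitters' processing notes name HISAT2 2.0.5, StringTie 1.3.3b, featureCounts 1.5.0, DESeq2 and edgeR, without saying which step made which value. The build is not given in the sources used here, but all 58735 identifiers, coordinates and lengths equalled GENCODE 29 (GRCh38). The table held 6 further per-sample columns that match no sample, and these were not used. FPKM times gene length was divided by its smallest value above 0 in each library, which was taken as 1 read. This gave whole numbers (within 0.01) for 100% of values above 0, and these are the recovered reads. Genes with FPKM of at least 1 in at least 3 libraries were fitted as log2(FPKM + 1), a scale that understates changes of low genes, with limma 3.58.1 (R 4.3.3, trend, two-sided, Benjamini-Hochberg adjustment over 12136 genes, adjusted p under 0.05). The fit was tested on simulated data. Intervals and limits from 3 reads cover counting error only. The 4 genes, the families and the motifs were chosen with earlier results of these data known. Named were the 4 genes, every family member past the threshold, up to 4 members with the highest NC level, known partners, the nearest neighbours and the 3 most similar genes.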

Additional observations from a re-analysis of the deposited data

How the results depend on the processing

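None of the 4 genes changed direction under any of the 19 alternatives, 18 for KRT13, which had no value with FPKM of at least 5 required. Leaving out 1 library at a time gave log2 differences of -1.97 to -1.82 for PRSS35, -1.83 to -1.52 for SAMD11, -1.85 to -1.40 for NPY1R and -1.62 to -1.45 for KRT13. A pseudocount of 0.1 gave -2.34 (PRSS35), -1.93 (SAMD11), -2.02 (NPY1R) and -2.60 (KRT13), and 0.5 gave -2.13 for PRSS35 and -1.98 for KRT13. TPM gave -2.67, -2.33, -2.32 and -2.62 in the same order, with a shift of the median of all genes to -0.41, and limma-voom gave -2.67, -2.23, -2.36 and -3.11, with a shift to -0.22. The GC and length correction gave -2.07 for PRSS35, -2.20 for SAMD11 and -2.11 for KRT13, and quantile normalization -1.39 for KRT13. TNF-α replicate 1 alone against the NC group, an alternative added after seeing the data, gave -1.97 for SAMD11, -1.07 for NPY1R and -1.77 for KRT13.

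The counts over all genes, 36 lower and 87 higher, moved far more. The lower count was 14 with FPKM of at least 5, 15 without a filter, 20 by limma-voom, 93 with the GC and length correction and 283 for TNF-α replicate 1 alone. The higher count was 43 without a filter, 44 by TPM, 56 by limma-voom, 131 by quantile normalization, 154 with the correction and 449 for replicate 1 alone. Leaving out 1 library gave 0 to 4461 lower and 10 to 5169 higher, the highest of both without TNF-α replicate 1. The keratin and neighbour calls, both KRT15, fell to 0 without a filter and by quantile normalization. They were also 0 with FPKM of at least 5, where KRT15 was not in the fit. Leaving out 1 library gave 0 to 2 keratins lower and 0 to 5 higher, 0 to 4 neighbours lower and 0 to 5 higher, 0 to 1 protease lower and 0 to 2 higher, 0 to 12 SAM domain genes lower and 0 to 3 higher, and 0 to 1 epithelial marker lower. The correction called 1 SAM domain gene higher, and replicate 1 alone called 2, and 1 neighbour. The cause of these moves was not tested. GFAP lost its call under 7 of 19 alternatives, SOX21 under 8 of 19 and CNR1 under 6 of 18, among them, for all 3 genes, leaving out any of the NC libraries. TNF-α replicate 1 alone takes its spread from the NC libraries.

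The replicate numbers gave no sign of pairing, as the deviations of same-numbered libraries correlated at -0.01, -0.18 and 0.12. Those of differently numbered libraries correlated at -0.16 to 0.18. The deviations are taken from the mean of only 3 libraries per group, so this check cannot exclude pairing. With the replicate number as a block, 1 gene was lower and 23 higher, and keratin and neighbour calls were 0. With 3 libraries per group, p-values measure only the spread between these cultures.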
